A study of Mus musculus with 12 samples.

Results

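The chemokine genes Cxcl9, Cxcl10, Cxcl13 and Cxcl16, all of the CXC family, are described here in alveolar macrophages of mice that had lost 70% of the liver. They were chosen by gene symbol, but with earlier results of these data known. They make up 4 of the 19505 genes with a symbol on the array, each measured by 1 probe set. The cells came from the lungs of male C57 Black mice and were collected with magnetic beads that carry an antibody to Siglec-F, and their total RNA was measured on Clariom S arrays. Control mice with an intact liver were compared with mice taken 1, 3 and 7 days after the resection, with 3 biological replicates in each of the 4 groups and so 12 arrays in all. No genotype, transgene or drug is named for any group. Because the controls had an intact liver, the operation itself and the loss of liver tissue cannot be told apart. Siglec-F is also carried by eosinophils, so the beads do not select macrophages alone.

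Chemokines are small secreted proteins that steer migrating leukocytes along a gradient through receptors on the cell surface. CXCL13 binds CXCR5 and draws B cells and follicular helper T cells; it is made by stromal cells of lymphoid follicles and, in some inflamed tissues, by macrophages. CXCL9 and CXCL10 bind CXCR3 on activated T cells and natural killer cells and are classic targets of interferons, CXCL9 mainly of interferon gamma. CXCL16 is made as a membrane protein, binds CXCR6 on T cells, and is released when ADAM10 or ADAM17 cuts it from the surface.

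The stretches of 250 bases before the annotated start of transcription are shown for the 3 genes found in the RefSeq promoter table (mouse build GRCm38.p6), because Cxcl13 and Cxcl10 differed from intact in opposite directions and Cxcl9 lies beside Cxcl10. Each is written 5′ to 3′ on the strand of its gene, and capitals mark matches to the motifs searched.
Cxcl9: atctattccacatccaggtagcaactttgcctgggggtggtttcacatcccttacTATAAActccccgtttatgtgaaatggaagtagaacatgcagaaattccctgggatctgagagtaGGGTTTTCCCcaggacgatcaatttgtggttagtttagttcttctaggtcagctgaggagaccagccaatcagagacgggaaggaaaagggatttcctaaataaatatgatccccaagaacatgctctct
Cxcl10: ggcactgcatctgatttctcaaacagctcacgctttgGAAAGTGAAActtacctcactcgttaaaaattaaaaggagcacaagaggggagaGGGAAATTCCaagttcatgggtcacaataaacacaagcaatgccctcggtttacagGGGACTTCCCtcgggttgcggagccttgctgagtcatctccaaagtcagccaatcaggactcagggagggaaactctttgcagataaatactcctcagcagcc
Cxcl13: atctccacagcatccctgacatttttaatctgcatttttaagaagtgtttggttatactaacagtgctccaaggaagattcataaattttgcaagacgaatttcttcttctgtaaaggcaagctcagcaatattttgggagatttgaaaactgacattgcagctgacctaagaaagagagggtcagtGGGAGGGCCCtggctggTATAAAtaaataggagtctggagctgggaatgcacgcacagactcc
The Cxcl9 stretch is chr5:92328080-92328329 on the minus strand, that of Cxcl10 is chr5:92348890-92349139 on the minus strand, and that of Cxcl13 is chr5:95956689-95956938 on the plus strand. Cxcl9 and Cxcl10 are near neighbours on chromosome 5, with only Art3 listed between them in RefSeq's gene order, and Cxcl10 is followed by Cxcl11, which RefSeq lists as a transcribed pseudogene. Cxcl16 lies on chromosome 11 between Med11 and Zmynd15.

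Both strands were searched for 4 motifs with no mismatch. An interferon-stimulated response element, spelled GAAANNGAAA, was found in Cxcl10 alone of the 3 stretches, as GAAAGTGAAA from 213 to 204 bases before the start. It occurs in 2.98% of the 32851 mouse promoter stretches of the same length. The kappaB motif GGGANNNNCC, read by NF-kappaB, was present in all 3 and is found in 17.6% of all stretches. Cxcl10 held it as GGGAAATTCC from 159 to 150 bases before the start and as GGGACTTCCC, on both strands at the same place, from 103 to 94. Cxcl9 held it on the reverse strand, 130 to 121 bases before the start, and Cxcl13 held it as GGGAGGGCCC, 63 to 54 bases before. The TATA motif TATAAA (12.4% of all stretches) lay 46 to 41 bases before the start of Cxcl13 and 195 to 190 before that of Cxcl9. The interferon gamma activated site TTCNNNGAA (7.02% of all stretches) matched none of the 3. A match is only a match of letters, and the arrays do not measure binding there.

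The values are log2 signals, so a difference of 1 is a doubling on the linear scale, and they are compared between arrays for 1 gene at a time, never between genes. The 5222 intron control probe sets, which should find little RNA, give a measure of background. A signal is called above background where it exceeds the upper 95% limit of those controls on the same array (5.01 to 5.69). In the gene lists, a gene is counted as under the limit on every array where its highest signal was below 5.01, the lowest of these limits. Separation of exon from intron controls had an area under the curve of 0.852 to 0.888 on 9 arrays. It was weaker on day 1 replicate 2 (0.809), on day 3 replicate 1 (0.832) and on day 7 replicate 2 (0.837). Results are therefore given over all 12 arrays and again over the 9 arrays without those 3. A spike-in control, dap, was above a log2 signal of 5 on day 3 replicate 1 and on day 7 replicates 2 and 3 only. Over 12 arrays, limma with Benjamini-Hochberg adjustment over 22206 probe sets called 0 probe sets at day 1 (0%), 1 at day 3 (0.0045%) and 4 at day 7 (0.018%) against intact at an adjusted p under 0.05. An unadjusted p under 0.05 was reached at day 1 by 674 probe sets that were higher and 1311 that were lower. In bulk RNA of this kind, fewer cells of a type and less RNA per cell cannot be told apart.

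Cxcl13, the B cell chemokine, was the member that was higher after resection. On the intact arrays its signal was 4.28, 4.09 and 5.03, at or below background in each, since none of these exceeded the limit of its array. At day 1 it was 7.28, 5.02 and 7.62; at day 3 it was 8.18, 5.86 and 7.03; at day 7 it was 6.96, 6.98 and 6.78. The signal was above background on 2 of 3 arrays at day 1 and on all 3 at day 3 and at day 7. Of the 9 arrays from resected mice, 8 lay above the highest intact array, the exception being day 1 replicate 2, at 5.02 against 5.03.

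The group means of Cxcl13 were 4.47 ± 0.50 in intact mice, 6.64 ± 1.42 at day 1, 7.02 ± 1.16 at day 3 and 6.91 ± 0.11 at day 7 (SD, n = 3). The differences from intact were 2.17 at day 1, 2.56 at day 3 and 2.44 at day 7, each ± 0.64 (SE), which correspond to 4.51-fold, 5.88-fold and 5.42-fold. Their 95% intervals ran from 0.79 to 3.56, from 1.17 to 3.94 and from 1.06 to 3.82, so each lay above 0 before adjustment. Because the intact signals were within background, these folds depend on a level that the array did not resolve. After adjustment over all probe sets none passed, with adjusted p-values of 0.355, 0.509 and 0.389 in limma. The unadjusted p-values were 0.00498, 0.00163 and 0.00228, and 3.04%, 1.96% and 1.95% of all probe sets were higher at an unadjusted p under 0.05 on those days. The intact and resected signals did not overlap at day 3 or at day 7, where 7.19% and 6.11% of all probe sets were higher without overlap; at day 1 they overlapped (background 7.42%).

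**Figure D1:**
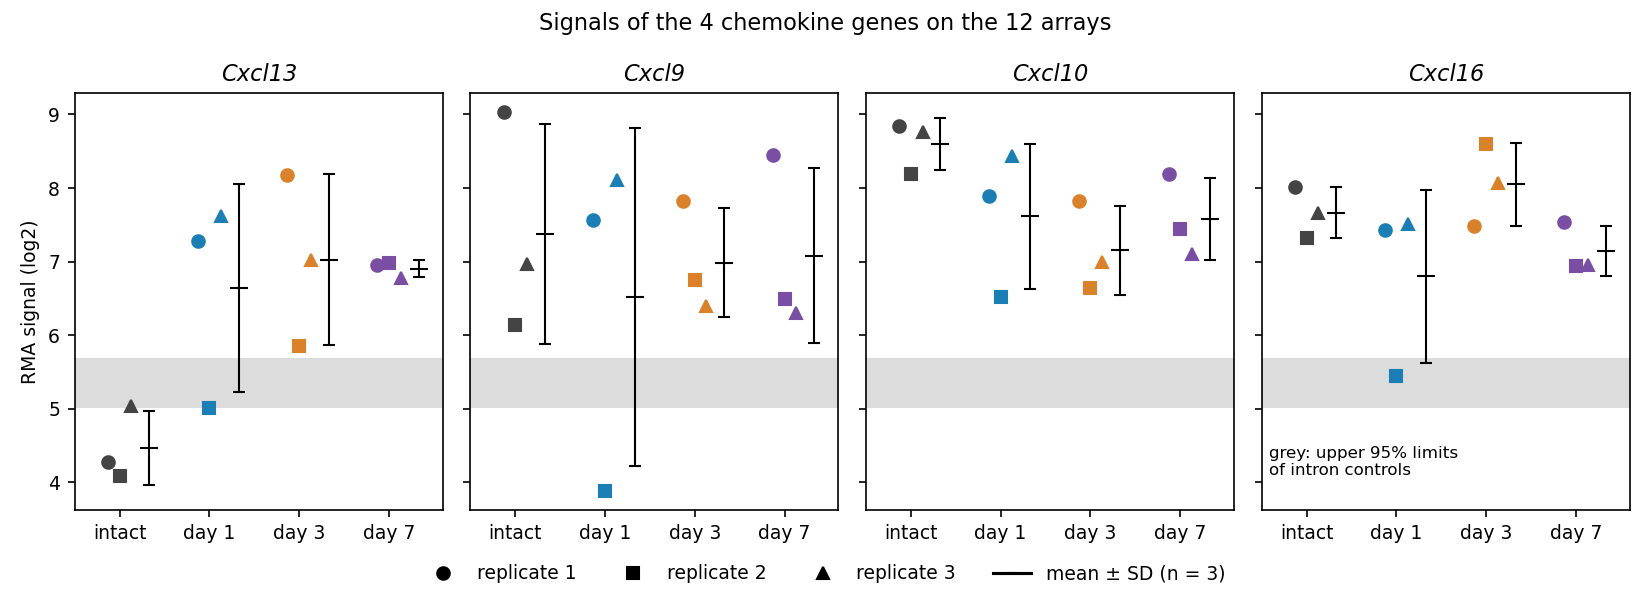
RMA log2 signals of Cxcl13, Cxcl9, Cxcl10 and Cxcl16 on the 12 arrays, 3 per group, with the group mean ± SD and a grey band for the range of the arrays' upper 95% limits of the intron controls. The intact Cxcl13 signals sit below or at the band (4.09 to 5.03), and its signals after resection, apart from day 1 replicate 2, sit above it.

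Over the 9 arrays that kept the 3 intact and 2 arrays of each day, Cxcl13 rose at all 3 times. The differences were 2.98 ± 0.33 at day 1 (adjusted p = 0.00487, limma), 1.98 ± 0.33 at day 3 (adjusted p = 0.0166) and 2.40 ± 0.33 at day 7 (adjusted p = 0.00658). In that fit 0.32%, 1.13% and 1.26% of all probe sets were called on the 3 days. The 3 arrays were left out for the separation of their controls, not for the level of any chemokine, but leaving them out changed which fit passed: the SE was 0.64 over 12 arrays and 0.33 over 9. Day 1 replicate 2 gave the lowest Cxcl13 signal of the resected arrays, 5.02, and day 3 replicate 1 the highest, 8.18. When single arrays were left out instead, the difference stayed positive each time. It ran from 1.68 to 2.98 at day 1, from 1.98 to 3.14 at day 3 and from 2.25 to 2.72 at day 7. The adjusted p-values in limma ran from 0.126 to 0.874, from 0.0802 to 0.99993 and from 0.0724 to 0.99997 on those days. Between days no difference was resolved: from day 1 to day 3 it was 0.38, from day 1 to day 7 it was 0.27 and from day 3 to day 7 it was -0.12, each ± 0.64.

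**Figure D2:**
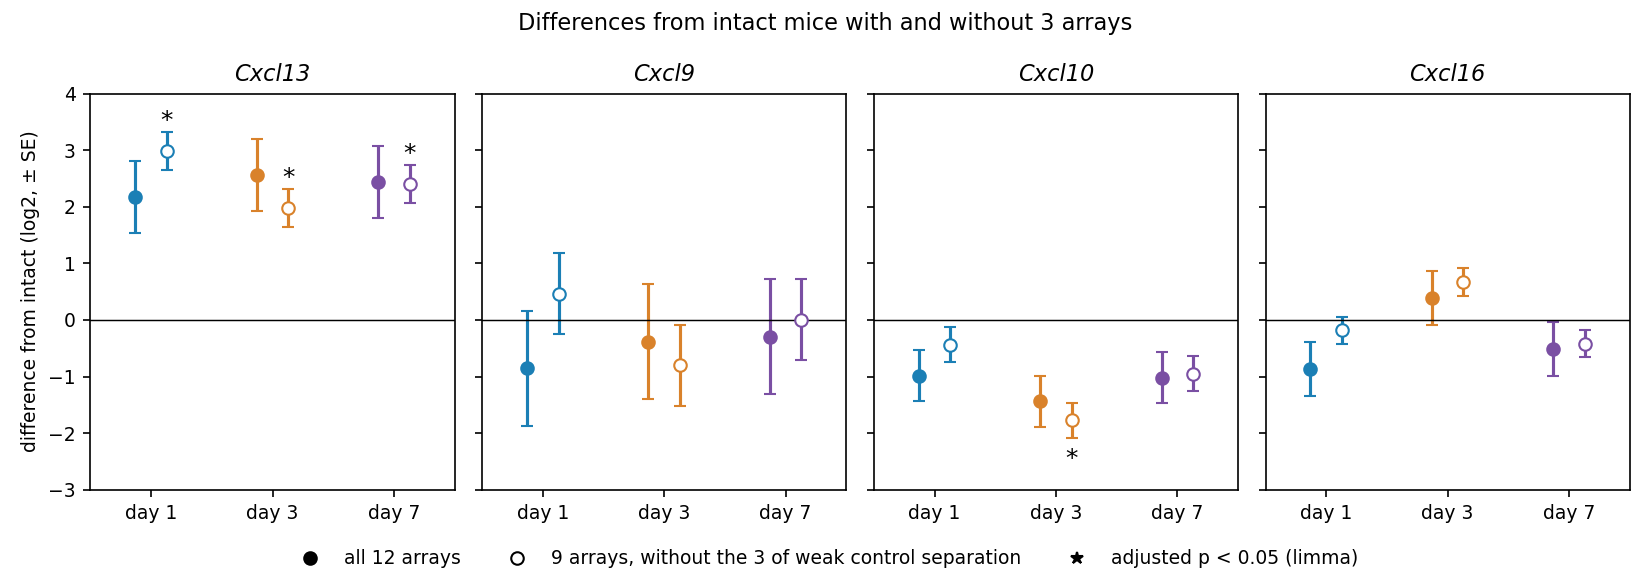
Differences from intact (log2, ± SE) of the 4 chemokine genes at days 1, 3 and 7 over 12 arrays and over the 9 arrays with stronger control separation; asterisks mark an adjusted p under 0.05 in limma. Cxcl13 at all 3 times and Cxcl10 at day 3 carry an asterisk in the 9-array fit, and none does in the 12-array fit.

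Cxcl10, which draws CXCR3-bearing T cells, was lower after resection. Its signal was 8.84, 8.19 and 8.76 in intact mice, 7.89, 6.52 and 8.43 at day 1, 7.83, 6.64 and 7.00 at day 3, and 8.19, 7.45 and 7.10 at day 7. All 9 resected arrays were below the intact mean, and 7 were below the lowest intact array. The signals at day 3 did not overlap those of intact mice, while at day 7 the highest resected and the lowest intact signal were equal to 2 decimals. Cxcl10 was above background on all 12 arrays.

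The means of Cxcl10 were 8.60 ± 0.36 in intact mice, 7.61 ± 0.98 at day 1, 7.16 ± 0.61 at day 3 and 7.58 ± 0.56 at day 7 (SD, n = 3). The differences from intact were -0.98, -1.44 and -1.02, each ± 0.46 (SE), or 0.506, 0.368 and 0.494 of the intact level. The interval at day 3 was -2.43 to -0.45, that at day 1 reached 0.0077 at its upper end, and that at day 7 reached -0.027. In limma the adjusted p-values were 0.560, 0.839 and 0.857, so none passed over 12 arrays. Unadjusted p-values were 0.0515, 0.00794 and 0.0449, where 5.9%, 2.5% and 3.74% of all probe sets were lower at an unadjusted p under 0.05. Separation without overlap in the lower direction, as for Cxcl10 at day 3, was seen in 6.68% of all probe sets on that day, in 8.94% at day 1 and in 8.15% at day 7. Over the 9 arrays Cxcl10 fell at day 3 by 1.78 ± 0.31 (adjusted p = 0.0185, limma), and the differences of -0.44 at day 1 (adjusted p = 0.703) and -0.95 at day 7 (adjusted p = 0.214) did not pass.

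Cxcl9, the other CXCR3 ligand, varied more within groups than between them. The 3 intact arrays read 9.03, 6.14 and 6.96, a spread wider than any difference between group means. At day 1 the signals were 7.57, 3.89 and 8.11; at day 3 they were 7.82, 6.75 and 6.39; at day 7 they were 8.45, 6.49 and 6.31. The 3.89 of day 1 replicate 2 was the only Cxcl9 signal below its array's background limit. Of the 9 resected arrays, 4 lay above the intact mean and 5 below. The group means were 7.38 ± 1.49, 6.52 ± 2.30, 6.99 ± 0.74 and 7.08 ± 1.19 (SD, n = 3) for intact and days 1, 3 and 7.

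The differences of Cxcl9 from intact were -0.85 at day 1, -0.39 at day 3 and -0.29 at day 7, each ± 1.02 (SE). The intervals, -3.06 to 1.36, -2.60 to 1.82 and -2.50 to 1.92, leave room for a change of more than 1 log2 unit either way, and the adjusted p-values in limma were between 0.807 and 1.00. Without day 1 replicate 2 the day 1 difference was 0.46. Without intact replicate 1, whose signal was 9.03, the differences at days 3 and 7 were 0.44 and 0.53, so the direction of Cxcl9 depends on single arrays. Over the 9 arrays its differences were 0.46, -0.80 and 0.0020.

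Cxcl16, the membrane-bound chemokine that draws CXCR6-bearing T cells, was above background on all 12 arrays. It read 8.01, 7.32 and 7.66 in intact mice, 7.44, 5.44 and 7.52 at day 1, 7.48, 8.60 and 8.07 at day 3, and 7.54, 6.95 and 6.95 at day 7. Day 1 replicate 2 stood lowest again, and day 3 replicate 2, which had the lowest Cxcl13 of its group, had the highest Cxcl16 of all arrays. The means were 7.66 ± 0.35, 6.80 ± 1.17, 8.05 ± 0.56 and 7.14 ± 0.34 (SD, n = 3). The differences from intact were -0.86 at day 1, 0.39 at day 3 and -0.52 at day 7, each ± 0.47 (SE). Intervals of -1.89 to 0.16, -0.64 to 1.42 and -1.55 to 0.51 all held 0, and the adjusted p-values in limma were between 0.611 and 1.00. Over the 9 arrays the Cxcl16 differences were -0.19, 0.67 and -0.42, each ± 0.24, and the day 3 value had an unadjusted p of 0.0179 and an adjusted p of 0.353 in limma. Leaving out single arrays gave -1.22 to -0.19 at day 1, where -0.19 is the value without day 1 replicate 2. Between days, Cxcl16 at day 3 was above day 1 by 1.25 ± 0.47, with an unadjusted p of 0.0211 and an adjusted p of 0.463 in limma. That difference ran from 0.57, without day 1 replicate 2, to 1.61 when single arrays were left out. Of all probe sets, 9.6% differed between those days at an unadjusted p under 0.05 and 0% at an adjusted p under 0.05. From day 3 to day 7 the difference was -0.91, with an adjusted p of 0.995. There 5.12% of all probe sets differed at an unadjusted p under 0.05 and 0% at an adjusted one, and between day 1 and day 7 these shares were 6.74% and 0%.

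Ordered by mean, Cxcl13 ran from day 3 through day 7 and day 1 down to intact, with steps of 0.12 and 0.27 between the 3 days and of 2.17 from day 1 to intact. Cxcl10 ran the other way, from intact down by 0.98 to day 1, by 0.035 to day 7 and by 0.42 to day 3. Of the steps between neighbours in the orders of all 4 genes, that of Cxcl13 between day 1 and intact had an unadjusted p of 0.00498 and that of Cxcl10 between intact and day 1 one of 0.0515, and neither passed after adjustment in limma. The moderated F test over the 4 groups gave unadjusted p-values of 0.00487 for Cxcl13, 0.0456 for Cxcl10, 0.0892 for Cxcl16 and 0.866 for Cxcl9. Adjusted, these were 0.408, 0.673, 0.737 and 0.968. Of all probe sets, 7.34% had an unadjusted p under 0.05 in that test and 0.00901% an adjusted one.

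The B cell chemokine was set against the T cell chemokines on each array by subtracting the mean deviation of Cxcl9, Cxcl10 and Cxcl16 from the deviation of Cxcl13, each taken from its own intact mean. This removes a shift that all 4 genes share to the same degree. The result was -0.94, 0.28 and 0.65 in intact mice, 3.06, 3.14 and 3.02 at day 1, 3.88, 1.94 and 3.29 at day 3, and 2.31, 3.43 and 3.40 at day 7. All 9 resected arrays, at 1.94 to 3.88, lay above the intact range. The means were 3.07 ± 0.066 at day 1, 3.04 ± 1.00 at day 3 and 3.05 ± 0.64 at day 7, against an intact SD of 0.83 (n = 3 each). No test is given for this balance, because the genes were grouped with earlier results of these data known. The balance holds an intact Cxcl13 level within background. On day 1 replicate 2, Cxcl13 (5.02) and Cxcl9 (3.89) were also under that array's limit of 5.32, so its balance rests partly on unresolved signals. The T cell chemokines' mean deviation was -0.90 ± 1.48 at day 1, -0.48 ± 0.28 at day 3 and -0.61 ± 0.69 at day 7.

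**Figure D3:**
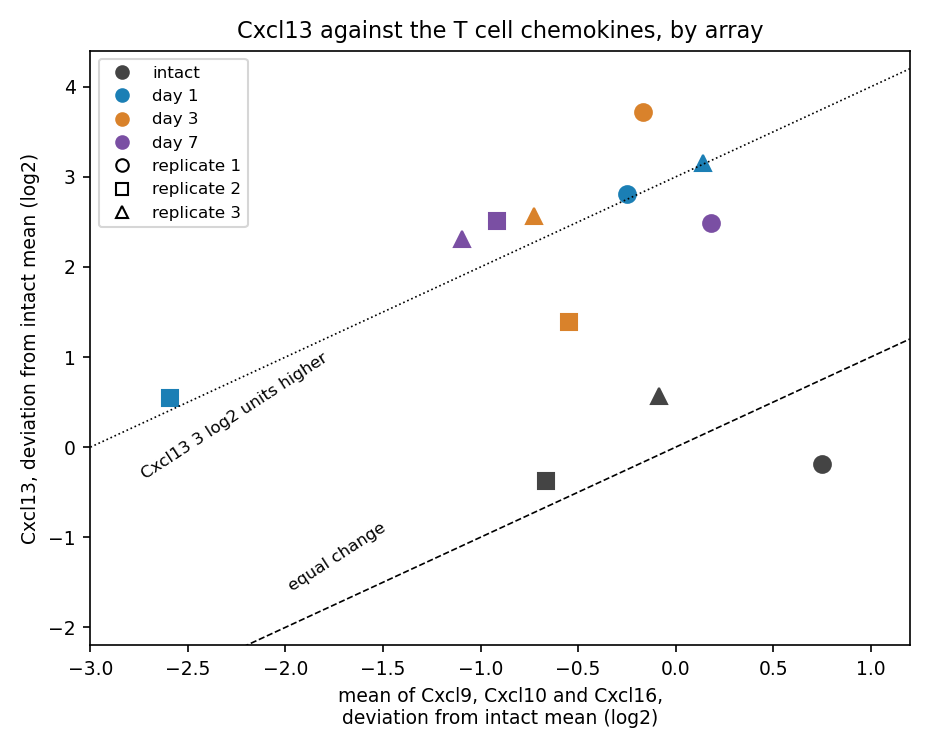
Deviation of Cxcl13 from its intact mean (vertical axis, log2) against the mean deviation of Cxcl9, Cxcl10 and Cxcl16 (horizontal axis, log2) on each of the 12 arrays; the lines mark equal change and Cxcl13 higher by 3. Intact arrays lie near the line of equal change, and the 9 resected arrays lie 1.94 to 3.88 above it.

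Among the 4 genes, the CXCR3 ligands were the most alike over the 12 arrays. Cxcl9 and Cxcl10 had a Pearson correlation of 0.72 and a Spearman correlation of 0.71, and without day 1 replicate 2 the Pearson value was 0.62. Cxcl9 and Cxcl16 gave 0.66 over 12 arrays and 0.20 without that array, so their likeness rested largely on that array. Cxcl13 gave 0.27 with Cxcl9, -0.17 with Cxcl10 and 0.086 with Cxcl16, and without that array 0.087, -0.37 and -0.25. Cxcl10 and Cxcl16 gave 0.30, and -0.16 without it. These are descriptions over arrays that share the RMA normalization and the groups.

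The genes whose signals most resembled each chemokine were sought among 5115 genes with a mean of at least 5. For Cxcl13 they were Lcn2, a neutrophil granule and acute-phase protein (Pearson correlation 0.96, Spearman 0.98, n = 12 arrays), Mmp8, the neutrophil collagenase (0.95 and 0.91), Hif1a, the hypoxia-inducible transcription factor (0.92 and 0.91), Retnlg, a resistin-like protein of neutrophils (0.91 and 0.78), and Sgms1, a sphingomyelin synthase (0.88 and 0.87). Without the 2 arrays farthest from the median of Cxcl13 these correlations were 0.95, 0.93, 0.95, 0.83 and 0.89. Those arrays were intact replicates 1 and 2, so intact replicate 3 was the only intact array left. For Cxcl10 the list was Cd69, an early activation receptor of leukocytes (0.95 and 0.88), Irf1, an interferon-induced transcription factor (0.92 and 0.95), Vcan, a matrix proteoglycan (0.90 and 0.91), Ifitm3, an interferon-induced antiviral membrane protein (0.89 and 0.89), and Ramp2, an endothelial receptor partner (0.88 and 0.80). For Cxcl9 it was Tnip3, Cd274, Ifi211, Zc3h12c and Rras, from 0.95 down to 0.91, where Cd274 encodes PD-L1. For Cxcl16 it was Ndufb9, Smad2, Gng12, Rrbp1 and Slc25a4, from 0.98 down to 0.94. Without the 2 arrays farthest from the median of each chemokine the correlations ran from 0.78 (Ifitm3) to 0.93 (Cd69) for Cxcl10. For Cxcl9 they ran from 0.77 (Cd274) to 0.87 (Zc3h12c) and for Cxcl16 from 0.69 (Gng12) to 0.91 (Ndufb9). All these genes were picked by correlation over the same 12 arrays, so correlations over 10 of those arrays are no independent check.

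The receptors of these chemokines gave no usable signal. Cxcr3, Cxcr5 and Cxcr6 ranged over the 12 arrays from 2.91 to 3.43, from 2.33 to 3.33 and from 1.94 to 2.51, and with the decoy receptors Ackr1 and Ackr4 all 5 stayed under the background limit on every array. The proteases that act on the chemokines were partly measured. Adam10, the main constitutive sheddase of CXCL16, differed from intact by 0.091, 0.17 and -0.31 on days 1, 3 and 7. Adam17, the inducible sheddase, differed by -0.53, -0.10 and -0.23, with its arrays below all intact arrays at day 1 and at day 7, where 8.94% and 8.15% of all probe sets were lower without overlap (adjusted p = 0.313 and 0.988, limma). Dpp4, which trims the end of CXCL10, was under the background limit on all arrays. Mmp9, a gelatinase that cuts CXC chemokines and that also marks neutrophils, was higher by 1.44, 1.46 and 1.95, with adjusted p-values of 0.270, 0.392 and 0.140 in limma.

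Of the interferon gamma target genes, 16 of 18 listed were measured, and most were lower after resection. At day 1, 15 of 16 had a negative difference, with a median of -0.84 against -0.017 over all genes, and 11 were lower at an unadjusted p under 0.05, where 5.9% of all probe sets were. At day 3, 14 of 16 were lower, with a median of -0.42 against 0.00071, and 2 were lower at an unadjusted p under 0.05 (2.5% of all probe sets). At day 7, 15 of 16 were lower, with a median of -0.50 against -0.015, and 5 were lower at an unadjusted p under 0.05 (3.74% of all probe sets). None passed at an adjusted p under 0.05 in limma. Igtp, an interferon-induced GTPase, differed by -1.49, -1.25 and -1.44 on days 1, 3 and 7; Irgm2, of the same family, by -1.47, -0.78 and -1.20; and Gbp3, a guanylate-binding protein, by -1.15, -0.60 and -1.10. Ciita, the master regulator of MHC class II genes, differed by -1.05, -0.41 and -0.40 and read at most 4.04, which is under background. The list's mean signal on day 1 replicate 2 was 4.51, against 6.22 to 6.48 on the intact arrays.

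The genes that carry the interferon signal showed a smaller shift. Of 15 measured among 17, 13 were lower at day 1, with a median of -0.48 against -0.017 over all genes, and 7 of these had an unadjusted p under 0.05, where 5.9% of all probe sets were lower. At day 3 there were 8 higher and 7 lower, with a median of 0.023 against 0.00071. At day 7 there were 13 lower with a median of -0.25 against -0.015, and none passed after adjustment on any day. Ifng itself, which encodes interferon gamma, was between 1.88 and 2.60 on every array, under background. Stat2, a transcription factor of the type I interferon pathway, differed by -1.35, -0.71 and -0.63, and Ifnar1, a type I receptor chain, by -0.89, -0.19 and -0.14. Socs1, the feedback inhibitor of the pathway, differed by -0.53, -0.43 and -0.69 at signals under background. Ifnar2, the other receptor chain, differed by -0.17, 0.30 and -0.26.

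CC chemokines that also draw lymphocytes, listed with some of their receptors, were measured for 8 of 9 genes. Of these, 6, 6 and 7 were lower on days 1, 3 and 7 with medians of -0.41, -0.78 and -0.33. On every array 3 of the 8 stayed under the background limit. Ccl5, a T cell attractant, differed by -1.16, -1.38 and -1.64, with adjusted p-values of 0.270, 0.211 and 0.140 in limma. Ccl22, a macrophage and dendritic cell product that draws regulatory T cells, differed by -2.08, -2.26 and -0.48, and Ccl4 by -0.51, -1.18 and -0.94. Ccl3 differed by -0.31, -0.55 and -0.18. None of the 8 passed after adjustment.

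Of 11 other CXC chemokines, 8, 9 and 11 were lower on the 3 days, with medians of -0.14, -0.53 and -0.27. Those below intact without overlap were 1 of 11 at day 1, 7 at day 3 and 4 at day 7, where 8.94%, 6.68% and 8.15% of all probe sets were. Under the background limit on every array were 5 of the 11 (Cxcl5, Cxcl11, Cxcl12, Cxcl14 and Cxcl17), and Cxcl14 and Cxcl17 are among the 7 of day 3. Cxcl1, a neutrophil attractant, differed by -0.64, -0.92 and -0.85, and Ppbp, a platelet chemokine, by -1.02, -1.74 and -1.50. Without day 1 replicate 2 their day 1 differences were -0.12 and -0.11. Cxcl12 (-1.01, -0.71 and -1.31) and Cxcl14 (0.32, -0.43 and -0.18) reached at most 4.97 and 4.52. Cxcl13 was thus higher on days on which most other measured CXC chemokines were lower, though none of these differences passed over 12 arrays.

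Genes of the lymphotoxin pathway, which governs Cxcl13 in lymphoid stroma, and of lymphoid organisation all had a probe set, 17 of 17. Of these, 8 stayed under the background limit on every array, and the counts and medians include them. They showed 5 higher and 12 lower at day 1, 6 and 11 at day 3, and 7 and 10 at day 7, with medians of -0.23, -0.071 and -0.096, and none passed after adjustment. Map3k14, the kinase that starts the noncanonical NF-kappaB pathway, differed by -0.53, -0.54 and -0.23. Tnfsf14, the ligand LIGHT, differed by -0.74, 0.39 and 0.26, and Il7r, the interleukin 7 receptor, by -0.26, 1.18 and 0.086. Ccl21a, a lymphoid stromal chemokine, differed by -1.84, -1.33 and -1.15.

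**Figure D4:**
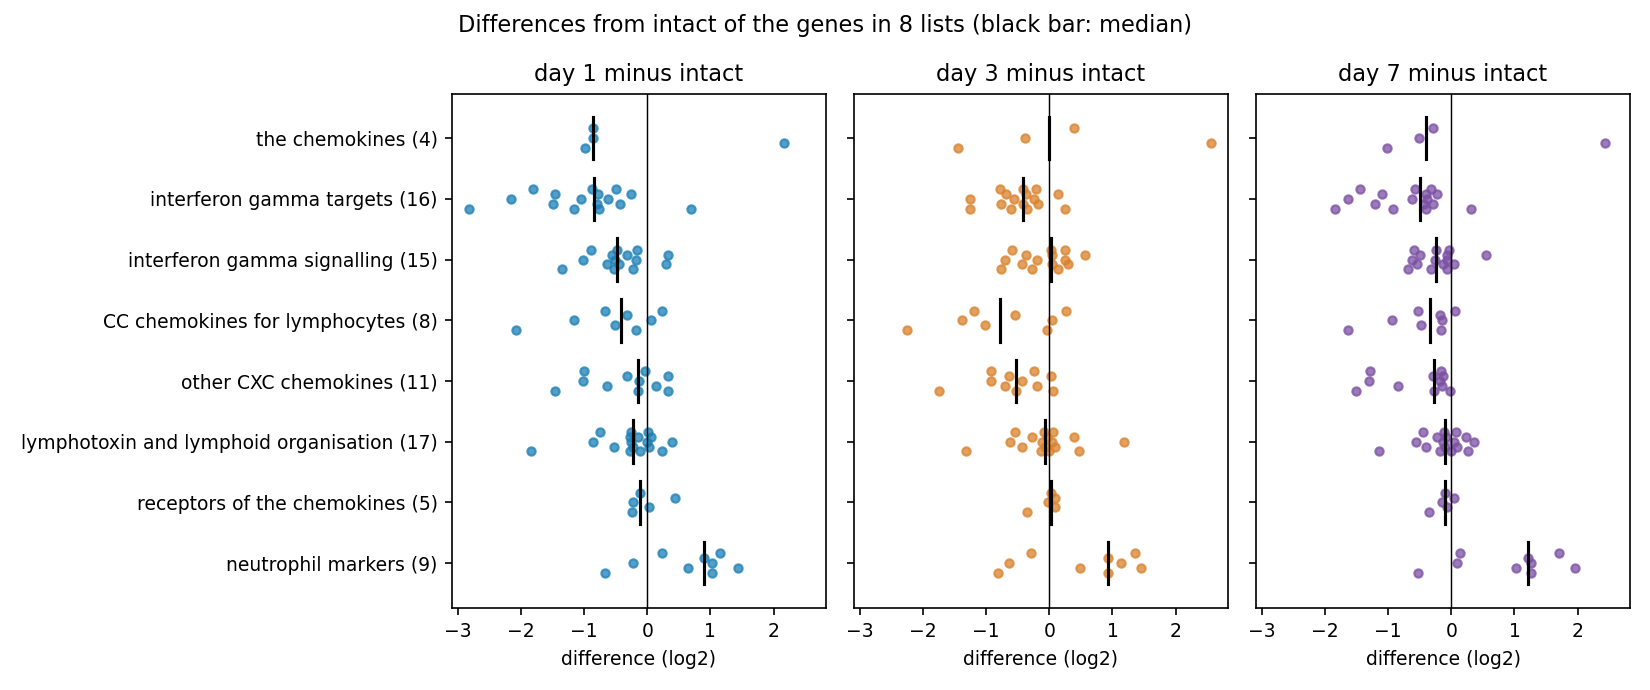
Differences from intact (log2) of single genes in the chemokine group and in 7 related gene lists at days 1, 3 and 7; each point is a gene and black bars are medians. The interferon gamma targets have medians of -0.84, -0.42 and -0.50, the neutrophil markers 0.89, 0.92 and 1.21.

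Markers of other cell types moved alongside these values, and their part in the results was not tested. The alveolar macrophage markers (7 of 8 measured) had a mean signal of 8.78 to 9.62 on the 12 arrays and no common direction. Of 9 neutrophil markers measured among 10, 7, 6 and 8 were higher on days 1, 3 and 7, with medians of 0.89, 0.92 and 1.21. Their mean ranged from 6.95 to 7.44 on the intact arrays, from 7.26 to 8.26 at day 1, from 7.33 to 8.26 at day 3 and from 7.78 to 8.38 at day 7. S100a8 and S100a9, abundant neutrophil proteins, were higher by 1.15 and 1.02 at day 1, while the granule genes Camp and Ltf differed by -0.67 and -0.23. None of the neutrophil markers passed after adjustment.

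**Figure D5:**
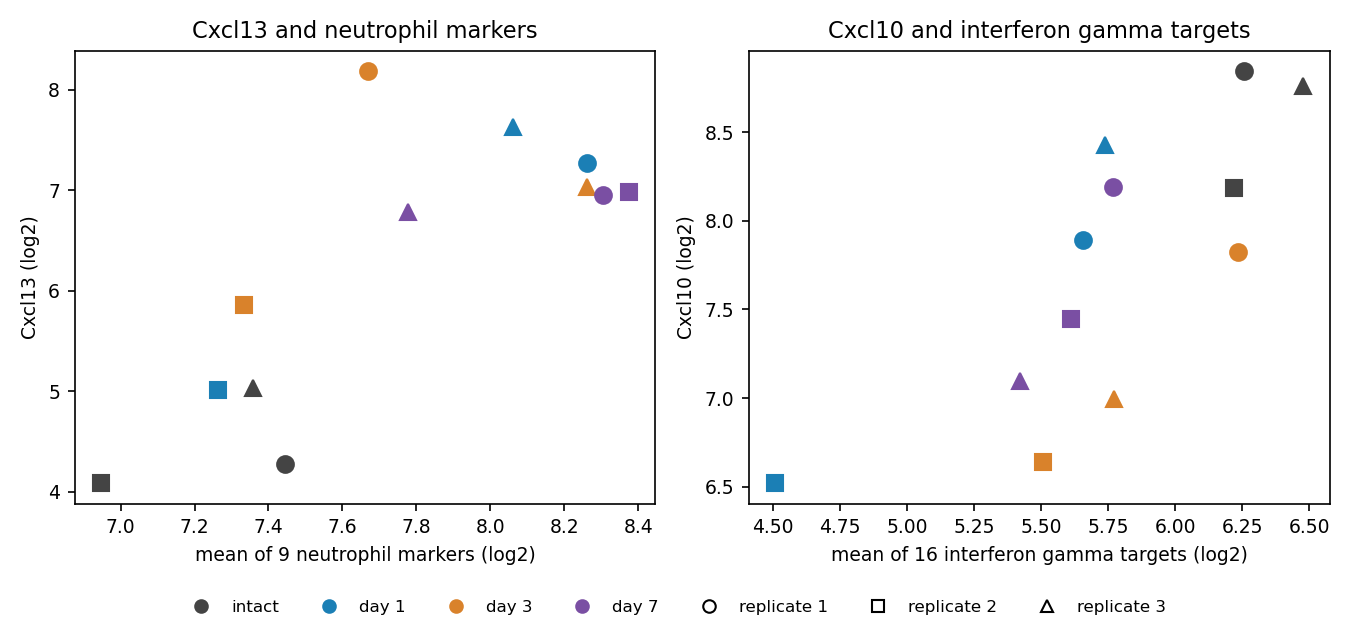
Left, log2 signal of Cxcl13 (vertical axis) against the mean log2 signal of the 9 measured neutrophil markers (horizontal axis); right, Cxcl10 against the mean of the 16 measured interferon gamma targets. Each point is 1 of the 12 arrays, coloured by group and shaped by replicate, and the axes do not start at 0; the intact arrays lie at 6.95 to 7.44 on the left horizontal axis and at 6.22 to 6.48 on the right one.

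Markers of lymphocytes were mostly close to background. All 7 measured T cell markers of 10 were under the limit on every array, as were 7 of 9 measured B cell markers. The mean signals of these lists were 2.67 to 3.39 and 3.17 to 3.65. Of the 9 B cell markers, 8, 7 and 8 were lower on days 1, 3 and 7 and 1, 2 and 1 were higher. Their medians were -0.17, -0.11 and -0.13, and none passed after adjustment. Ms4a1, which encodes CD20, reached 2.84 and Cd22 read 5.93 to 7.72. Cd79a differed by -0.71, -0.91 and -0.94. It lay below all intact arrays at days 3 and 7, as did 6.68% and 8.15% of all probe sets. Its highest signal was 5.05, under the limits of the intact arrays (5.06 to 5.24). Of 6 measured natural killer cell markers of 7, 5 were under the limit on every array. The other, Gzma, read 2.61 to 6.52 and differed by -2.39, -1.93 and -2.60 on days 1, 3 and 7. Its adjusted p-values were 0.167, 0.392 and 0.140 in limma. Gzma lay below all intact arrays on each day, where 8.94%, 6.68% and 8.15% of all probe sets were lower without overlap. Most markers of lung structural cells were lower after resection. All 6 endothelial markers were lower on each day, with medians of -1.66, -1.25 and -1.38 and means of 6.34 to 7.26 on intact arrays against 4.05 to 6.74 after resection. All 5 measured fibroblast markers of 6 were lower on each day, with medians of -1.28, -1.21 and -1.05. After adjustment in limma 1 of them passed at day 3 and 2 at day 7, where 0.0045% and 0.018% of all probe sets passed. The 4 measured type 1 cell markers of 5 and the 5 type 2 cell markers were lower on each day, with medians of -1.17, -0.48 and -0.996 and of -1.43, -1.09 and -1.59; Sftpd, a surfactant protein of type 2 cells, passed at day 7 (-1.98, adjusted p = 0.00965, limma). Of 4 measured airway markers of 5, 3 were lower on each day, and Epcam, an epithelial adhesion protein, was the other, at 1.11, 0.61 and 1.70.

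Eosinophil markers, of which 5 of 5 were measured, did not move as a group, with medians of -0.30, -0.38 and 0.77. The receptor gene for eotaxin, Ccr3, differed by -0.30 at day 1, by 2.14 at day 3 and by 2.71 at day 7. Its mean was 3.37 in intact mice, under background, so these differences start from a level that the array did not resolve. Il5ra, the receptor gene for interleukin 5, differed by -0.11, 1.57 and 1.24 on days 1, 3 and 7. It read at most 4.47, under background on every array. The granule genes Prg2 and Epx differed by -1.55 and -1.53 at day 3 and by -0.27 and -0.27 at day 7. Ear6 differed by 1.03, -0.38 and 0.77 on days 1, 3 and 7. At an unadjusted p under 0.05, 2 were higher and 2 lower at day 3 and 3 were higher at day 7, where 1.96%, 2.5% and 1.95% of all probe sets were, and none passed after adjustment in limma.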

How the data were processed

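Total RNA of Siglec-F+ alveolar macrophages was measured on Clariom S mouse arrays (12 arrays, 4 groups of 3). Deposited were log2 signals; per the submitters' processing notes the authors used the Transcriptome Analysis Console and RMA. The scale was read from the values; versions and the genome build are not given in the sources used here. RMA normalizes quantiles, so a shift of most genes cannot be seen. Of 28846 probe sets, 6640 controls (1324 exon, 5222 intron) only described the arrays; 22206 were tested. The probe annotation gave 19572 of these 1 symbol and 2634 none; the probe set with the highest mean stood for a gene.

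limma 3.58.1 in R 4.3.3 was fitted to all 12 arrays with group as the only term, two-sided, with Benjamini-Hochberg adjustment over 22206 probe sets and a threshold of 0.05, and was checked on simulated data. The chemokines and gene lists were chosen with earlier results of these data known. Named genes are the 4 chemokines, their receptors and proteases, up to 4 genes of each other list with the smallest unadjusted F p, and for each chemokine the 5 genes with the highest correlation. The marker genes S100a8, S100a9, Camp, Ltf, Ngp, Ms4a1, Cd79a, Cd22, Gzma, Ccr3, Il5ra, Prg2, Epx, Ear6, Sftpd and Epcam, and Cxcl5, Cxcl11, Cxcl17 and Ifng, were named after their values were seen. Listed genes without a probe set symbol were not analysed here. Settings tried instead were 12, besides leaving out each of the 12 arrays. The number of arrays, 3 a group, limits the precision. The labels call the replicates biological without saying whether each is 1 animal or a pool.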

Additional observations from a re-analysis of the deposited data

How the results depend on the processing

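Adjusted calls against intact rose most with array weights and over the 9 arrays. Array weights are estimated from the spread within groups of these same data, and the 3 arrays left out all came from resected mice. Whether array quality was the reason was not tested. Against intact, day 1 had 0 calls, but 43 with array weights, 71 over 9 arrays and 1 with the dap labelling control as a block. Day 3 had 1, but 4 with trended, robust moderation, 3 with an intron-median filter, 0 with a mean of at least 5, 4 after quantile normalization, 0 with only the groups compared, 298 with weights, 252 over 9 arrays, 5 at a threshold of 0.1 and 2 with 1 probe set per gene. Day 7 had 4, but 8 with the intron filter, 0 with a mean of at least 5, 48 with only the groups compared, 402 with weights, 280 over 9 arrays and 8 at 0.1. Day 3 against day 1 had 6 over 9 arrays; day 7 against day 3 had 7 with weights and 4 over 9 arrays. Leaving out single arrays gave 0 to 12, 0 to 7 and 0 to 18 calls for days 1, 3 and 7 against intact, 0 to 3 for day 3 against day 1 and 0 to 3 for day 7 against day 3.

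Cxcl13 passed with weights at day 1 (2.82), day 3 (2.30) and day 7 (2.40), over 9 arrays (2.98, 1.98 and 2.40), and at day 7 with only the groups compared (2.44). Cxcl10 passed at day 3 with weights (-1.57) and over 9 arrays (-1.78). Of 576 alternative values of the 24 chemokine results, 531 kept direction and side of the threshold, 9 newly passed and 36 reversed; Cxcl13 and Cxcl10 kept their direction against intact throughout. Of 1557 such values of 22 other genes, 1518 kept both, 24 newly passed and 15 reversed. With weights the reversed values were Cxcl9 at day 1 (0.42), Cxcl9 and Cxcl13 from day 1 to day 3 (-0.87, -0.53), Cxcl9, Cxcl13 and Cxcl16 from day 1 to day 7 (-0.80, -0.43, -0.26) and Cxcl13 from day 3 to day 7 (0.099). Over 9 arrays they were Cxcl9 at days 1 and 7 (0.46, 0.0020), Cxcl9 and Cxcl13 from day 1 to day 3 (-1.27, -1.01), Cxcl9, Cxcl13 and Cxcl16 from day 1 to day 7 (-0.46, -0.58, -0.23) and Cxcl13 from day 3 to day 7 (0.42). With the dap block Cxcl13 from day 1 to day 7 was -0.29 and Ccl22 at day 7 was 0.46. Il7r and Ccl4 at day 1 were 0.13 and 0.078 with weights and 0.11 and 0.18 over 9 arrays, where Ifnar2 at day 1 was 0.0042 and Tnfsf14 at day 7 was -0.058.

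Leaving out single arrays, Cxcl9 ranged from -1.65 to 0.46 at day 1, -1.01 to 0.44 at day 3, -0.98 to 0.53 at day 7, -0.85 to 1.26 from day 1 to day 3, -0.76 to 1.35 from day 1 to day 7 and -0.59 to 0.51 from day 3 to day 7. Cxcl13 ranged from -0.43 to 0.97, -0.54 to 0.76 and -0.70 to 0.46 for these pairs of days. From day 1 to day 7 Cxcl10 ranged from -0.58 to 0.37 and Cxcl16 from -0.33 to 0.70. The balance of Cxcl13 against the T cell chemokines at day 1 ranged from 2.60 to 3.40. Il7r ranged from -0.60 to 0.11 at day 1 and -0.15 to 0.41 at day 7, Ifnar1 from -0.25 to 0.015 at day 7, Ifnar2 from -0.31 to 0.0042 at day 1, Ccl4 from -0.94 to 0.18 at day 1, Tnfsf14 from -0.058 to 0.54 at day 7 and Ccl22 from -1.24 to 0.023 at day 7. The causes were not tested.

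Replicate numbers are shared by the groups but did not pair the arrays: correlations of same-numbered deviations ran from -0.24 to 0.26, 3 of 18 exceeded 0.1, and 3 of 12 arrays correlated best with their own number. With the replicate block there were 0 calls at day 3 and 8 at day 7. Each chemokine has 1 probe set, so averaging probe sets changes no value; dim genes have no value under the filter at 5, nor has the balance under weights, blocks or only the groups compared. Signal over background limits Cxcl13 in intact mice and the receptors.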
